A study of Mus musculus with 12 samples.

Results

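The immediate early genes described here are 10 genes taken by name from the gene symbols of the count tables: Fos, Fosb, Fosl2, Jun, Junb, Atf3, Egr1, Ier2, Ier3 and Myc. They are 10 of 55453 symbols, and 10 of 10 passed the filter on low counts that left 14757 genes to test. Messenger RNA from whole mouse hearts was sequenced in 12 libraries, 3 mice in each of 4 groups. WT mice (labelled PDE10A WT) and KO mice (labelled PDE10A Knockout), both of strain C57BL/6J, were given either vehicle or doxorubicin (DOX), an anthracycline cancer drug that is toxic to the heart. The protocol describes DOX as a bolus of 15 mg/kg injected into the abdominal cavity, with 7 days of treatment. It also describes TP-10, an inhibitor of the cyclic nucleotide phosphodiesterase PDE10A, and the DMSO and cyclodextrin solution it was dissolved in. No library used here is labelled with TP-10, and whether the vehicle groups received that solution or another is not stated for each sample. The protocol covers male and female mice. Age and the way the knockout was made are not given.

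Library totals ranged from 23846398 to 32921876 counts, and no pair of libraries was identical. Pde10a, the targeted gene, lay between 1.00 and 3.38 CPM (read counts scaled for library size) in the 6 WT libraries and between 8.27 and 11.9 CPM in the 6 libraries labelled KO. It was thus higher under the KO label, by 2.30 on the log2 scale with vehicle and by 1.98 with DOX (adjusted p = 0.0047 and 0.0243, edgeR quasi-likelihood test). Every direction between genotypes given below therefore compares libraries labelled KO with libraries labelled WT. In a principal component analysis, component 1 (28.9% of the variance) put WT vehicle mouse 2 at one end and WT DOX mice 22 and 24 at the other. All 8 cardiomyocyte markers were detected in every library, with a summed level of 51245 to 77050 CPM, and the summed lymphocyte markers reached at most 2.66 CPM. In whole tissue, fewer cells of a type and less RNA per cell cannot be told apart. The mice of the groups carry different numbers, so no pairing was used. The p-values measure a spread between mice that is shared over the 4 groups. A wide spread in 1 group thus enters the standard error of every comparison.

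Immediate early genes are switched on within minutes of a stimulus without any need for new protein synthesis, because the factors that start their transcription are already in the cell and are activated by kinases. FOS and JUN proteins pair through leucine zippers into the dimeric transcription factor AP-1. EGR1 is a zinc finger factor induced by the same growth, stretch and stress signals, and in the heart these transcripts are known for their brisk response to load, ischaemia, adrenergic drive and the handling of tissue. Their RNAs are short-lived, so a level measured once is a reading of recent signalling rather than of a lasting state.

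In WT hearts, Fosl2, Atf3 and Myc were called higher with DOX and Egr1 and Ier2 lower, while Fos, Fosb, Jun, Junb and Ier3 did not pass the test. These are 5 of 10 members called at an adjusted p below 0.05, against 18.6% of all genes tested in that comparison (9.39% higher, 9.2% lower). The calls depended on single libraries. None of the 5 held without WT DOX mouse 22, WT vehicle mouse 2 or WT vehicle mouse 3, or in a fit of the WT groups alone. Under vehicle, 1 of 10 members, Egr1, was lower in hearts labelled KO than in WT, against 2.88% of all genes called in either direction and 1.09% called lower. No member was called for DOX in KO hearts, where 0.0136% of all genes were. None was called for KO against WT under DOX, where 0.42% of all genes were. None was called for the interaction, which subtracts the WT effect of DOX from the KO effect, where 0.21% of all genes were. At an unadjusted p below 0.05 these last 3 comparisons held 1, 4 and 5 members of 10, against 5.35%, 15.5% and 16% of all genes. DESeq2 called 0, 3 and 1 members in them and limma-voom 0, 3 and 4. DOX in WT and KO under vehicle share the WT vehicle libraries, so the 2 results are not independent.

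**Figure D1:**
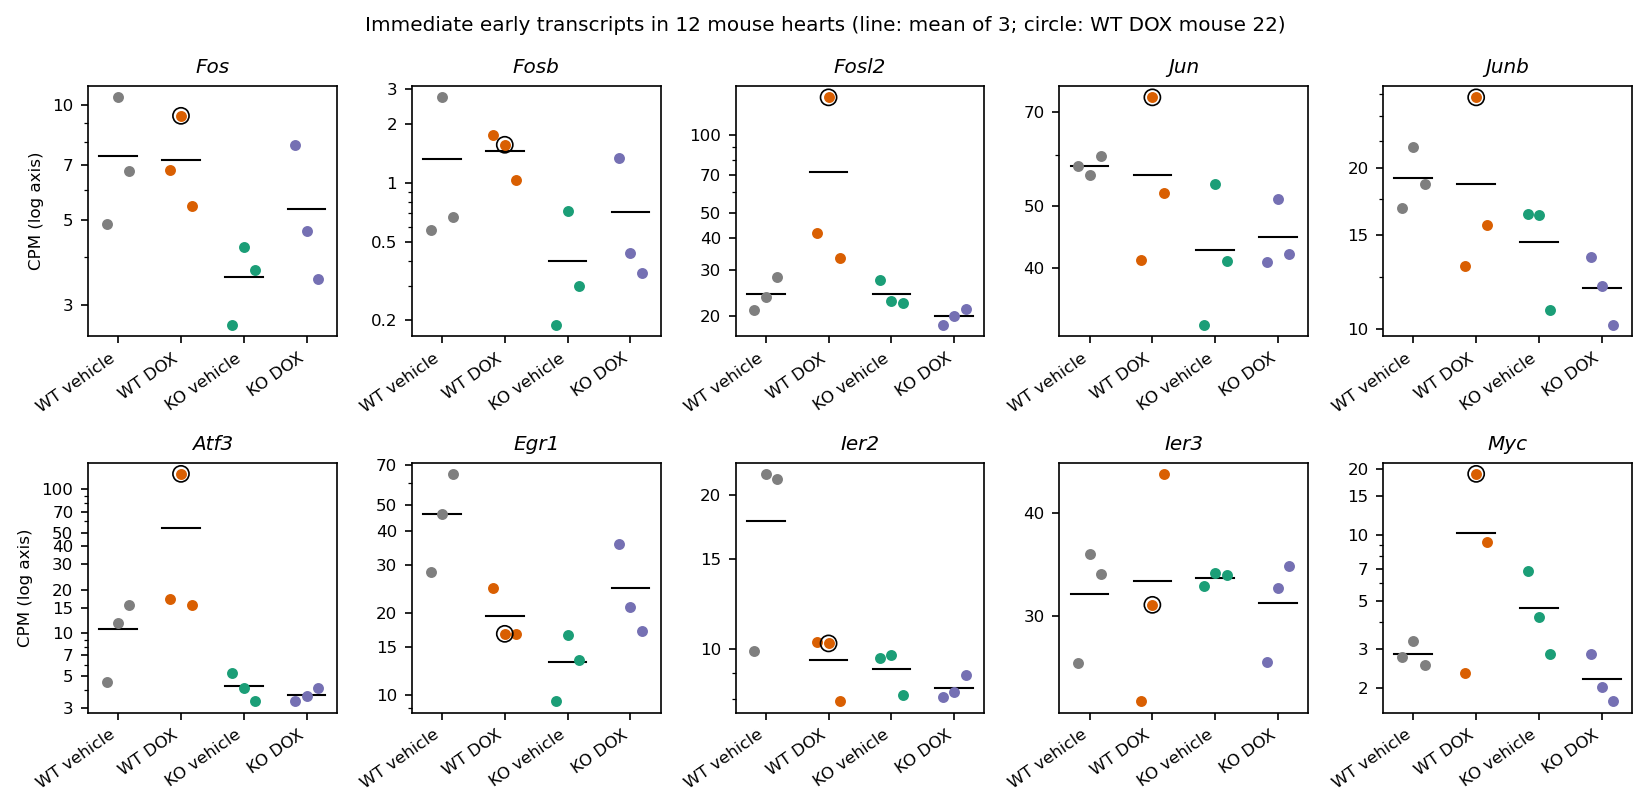
CPM on a log axis for the 10 genes in the 12 libraries (points, 3 mice per group), with the group mean as a line and WT DOX mouse 22 circled. That mouse lies far above the other libraries for Fosl2 (140 CPM), Atf3 (128 CPM) and Myc (19 CPM), and WT vehicle mice 2 and 3 lie highest for Egr1 (46.0 and 64.8 CPM).

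Levels can be compared between genes only per length of transcript. Per kilobase of exon, the WT vehicle means ran from Ier3 at 28.2 ± 4.39 CPM per kb (SD, n = 3) and Jun at 18.1 ± 0.596 down to Myc at 1.05 ± 0.14 and Fosb at 0.213 ± 0.195. Between them came Ier2 (11.7 ± 4.50), Egr1 (10.3 ± 4.08), Junb (8.32 ± 1.11), Atf3 (4.93 ± 2.60), Fos (3.14 ± 1.21) and Fosl2 (2.51 ± 0.376). Neighbours from Ier2 to Junb, and from Atf3 to Fosl2, lay within 1 SD of each other. Under DOX the WT means were 24.9 ± 30.0 CPM per kb for Atf3 and 7.40 ± 6.12 for Fosl2. All other values below are CPM per gene, not divided by length.

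Fos (chromosome 12, 85473890 to 85477273, plus strand, GRCm38) encodes the founding AP-1 partner of JUN. It stood at 4.90, 10.5 and 6.75 CPM in WT vehicle mice 1, 2 and 3 and at 6.76, 9.39 and 5.44 CPM in WT DOX mice 21, 22 and 24. In KO vehicle mice veh_3393, veh_3394 and veh_3395 it stood at 2.66, 4.26 and 3.71 CPM and in KO DOX mice 18, 19 and 20 at 7.88, 4.68 and 3.51 CPM. All 3 KO vehicle hearts lay below all 3 WT vehicle hearts, and all other pairs of groups that share a genotype or a treatment overlapped. The log2 difference between KO and WT under vehicle was -1.06 (SE 0.34, adjusted p = 0.0859), 2.09-fold lower on the fitted scale, and did not pass the threshold over all genes. Without WT vehicle mouse 2, the highest of the 12, it was -0.72 (SE 0.34, adjusted p = 0.317). It passed without WT vehicle mouse 1 (adjusted p = 0.0289), which had the lowest WT vehicle value, with DESeq2 (0.0221) and with limma-voom (0.0104). DOX gave a log2 difference of -0.05 (SE 0.33) in WT and of 0.59 (SE 0.35) in KO, neither of which passed (adjusted p = 0.937 and 0.997).

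Fosb (chromosome 7, 19302696 to 19310051, minus strand), a close relative of Fos, was the least abundant of the 10, with 5 to 79 counts per library. It measured 0.579, 2.73 and 0.675 CPM in WT vehicle, 1.76, 1.57 and 1.04 CPM in WT DOX, 0.190, 0.717 and 0.299 CPM in KO vehicle and 1.34, 0.439 and 0.347 CPM in KO DOX hearts, in the same order of mice. WT vehicle mouse 2 and KO DOX mouse 18 stood above their groups, as they did for Fos. The KO vehicle difference was -1.73 on the log2 scale (SE 0.70, adjusted p = 0.146), with overlapping groups. Without WT vehicle mouse 2 it was -0.63 (SE 0.65, adjusted p = 0.671).

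Fos and Fosb followed each other over the 12 libraries, with Pearson's r = 0.93 and Spearman's rho = 0.916 on log2 CPM (permutation p adjusted over 45 pairs of members 0.00315 and 0.0036). Without the 2 libraries farthest from the median of Fos, r was 0.863, and after removing group means it was 0.892. Fosl2 and Atf3 were the other pair that passed, with r = 0.938 and rho = 0.909 (permutation p adjusted 0.00405 and 0.0036). Without the 2 libraries farthest from the median of Fosl2, r was 0.81, and without WT DOX mouse 22 it was 0.84. None of the other 43 pairs passed by Pearson's r, and Egr1 with Ier2 went from r = 0.725 to -0.057 without the 2 libraries farthest from the median of Egr1.

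**Figure D2:**
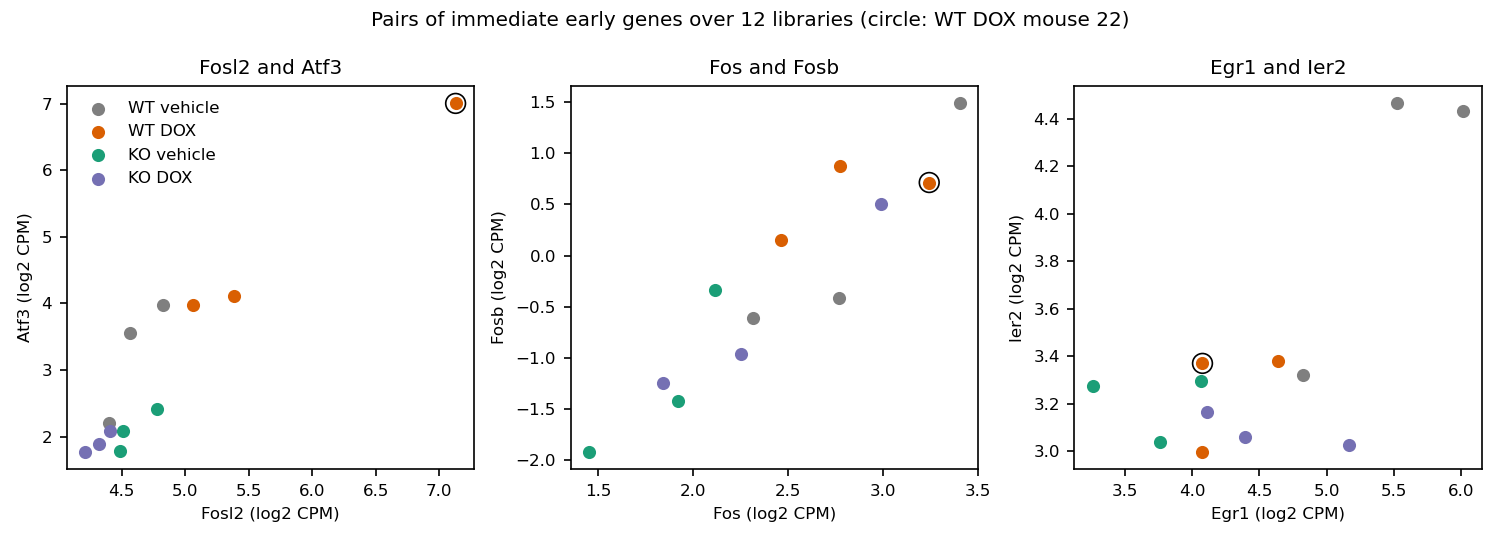
Log2 CPM of 3 pairs of genes in the 12 libraries, coloured by group, with WT DOX mouse 22 circled. Fos and Fosb line up across all groups (r = 0.93), Fosl2 and Atf3 line up with mouse 22 far out (r = 0.938), and Egr1 with Ier2 (r = 0.725) rests on 2 WT vehicle hearts.

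The DNA just before the start of transcription is one place where signal-activated factors bind these genes. The 250 bases before the RefSeq start (GRCm38.p6) are printed 5′ to 3′ on the gene's strand for the pair Fos and Fosb, for Atf3, which had the widest range of the 10, and for Jun, which did not pass in any comparison. Capitals mark the cAMP response element core TGACG, the related TGACNTCA and the TATAAA box, searched on both strands. A TGACG inside a TGACNTCA would be counted under both. Upstream of Fos the window is chr12:85473640-85473889, of Fosb chr7:19310046-19310295 (minus strand), of Atf3 chr1:191183334-191183583 (minus strand) and of Jun chr4:95052223-95052472 (minus strand).
Fos: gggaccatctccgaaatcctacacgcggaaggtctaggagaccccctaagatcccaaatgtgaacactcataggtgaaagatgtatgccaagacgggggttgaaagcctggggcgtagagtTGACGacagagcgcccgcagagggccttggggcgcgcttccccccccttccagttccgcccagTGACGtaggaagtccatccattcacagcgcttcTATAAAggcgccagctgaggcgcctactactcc
Fosb: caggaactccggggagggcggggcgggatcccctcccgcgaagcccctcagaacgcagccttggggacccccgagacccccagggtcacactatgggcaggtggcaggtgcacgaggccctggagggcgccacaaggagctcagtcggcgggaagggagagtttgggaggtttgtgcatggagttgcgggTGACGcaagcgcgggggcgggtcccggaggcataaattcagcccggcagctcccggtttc
Atf3: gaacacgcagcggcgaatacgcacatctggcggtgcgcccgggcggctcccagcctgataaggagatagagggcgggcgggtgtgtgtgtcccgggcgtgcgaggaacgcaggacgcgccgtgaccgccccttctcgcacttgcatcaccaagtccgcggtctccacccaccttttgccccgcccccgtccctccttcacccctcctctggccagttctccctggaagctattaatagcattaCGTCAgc
Jun: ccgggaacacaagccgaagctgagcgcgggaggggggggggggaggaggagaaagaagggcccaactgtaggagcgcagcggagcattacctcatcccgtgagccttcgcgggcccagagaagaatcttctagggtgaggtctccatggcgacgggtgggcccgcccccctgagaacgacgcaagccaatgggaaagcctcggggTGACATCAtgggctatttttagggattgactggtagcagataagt

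Fos holds TGACG at 129 to 125 and at 66 to 62 bases before its start, and TATAAA at 33 to 28. Fosb holds TGACG at 60 to 56 bases, and Atf3 holds it on the opposite strand at 7 to 3 bases before the RefSeq start, which lies inside the span of the gene in GENCODE M21. Jun holds TGACATCA, a form of TGACNTCA, at 45 to 38 bases. Windows of 7 of the 10 members were matched by symbol, and none was matched for Egr1, Ier2 or Myc. The window of Fosl2, which is not printed, starts downstream of the GENCODE gene start and lies wholly in annotated exon (250 of 250 bases). Of the 7 windows, 4 held TGACG (Fos, Fosb, Junb and Atf3), against 17.7% of 32817 promoter windows of the same length. TGACNTCA was in 1 of 7 against 7.49% of windows, TATAAA in 1 of 7 against 12.4%, and the GC box GGGCGG in 6 of 7 against 32.7%. A CArG box, the consensus AP-1 site TGANTCA, the E-box CACGTG and the EGR site GCGTGGGCG were in none of the 7 windows, against 1.47%, 6.75%, 6.02% and 0.536% of all windows. Sites farther than 250 bases before the start, and all sites of Egr1, Ier2 and Myc, were not searched, so their absence from these genes cannot be read from this.

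Fosl2 (chromosome 5, 32135801 to 32157842, plus strand) encodes FRA-2, a FOS relative without a strong transactivation domain. It measured 21.1, 23.6 and 28.3 CPM in WT vehicle and 41.7, 140 and 33.4 CPM in WT DOX hearts, against 27.4, 22.7 and 22.4 CPM in KO vehicle and 18.47, 19.98 and 21.15 CPM in KO DOX hearts. Every WT DOX heart lay above the other 9, and every KO DOX heart lay below every KO vehicle heart. DOX raised it 2.94-fold in WT (log2 1.56, SE 0.41, adjusted p = 0.0266). In KO hearts the log2 difference was -0.28 (SE 0.41, adjusted p = 0.997). That SE shares the spread of all groups, and in a fit of the KO groups alone it was 0.10 (adjusted p = 0.399). KO under DOX against WT under DOX gave -1.85 (SE 0.41, adjusted p = 0.0757) and the interaction -1.84 (SE 0.58, adjusted p = 0.197). Without WT DOX mouse 22 the DOX effect in WT was 0.63 on the log2 scale (SE 0.15) and missed the threshold (adjusted p = 0.0586). It also missed it without WT vehicle mouse 2 (0.0877) or 3 (0.0633). Without WT DOX mouse 21 or 24, in turn, the KO difference under DOX passed (adjusted p = 0.0175 and 0.0302), as it did with DESeq2 (0.00799) and limma-voom (0.0188). Leaving out WT DOX mouse 22 gave -0.92 (SE 0.15, adjusted p = 0.06), and for the interaction -0.91 (SE 0.20, adjusted p = 0.174). The interaction passed with limma-voom (0.0396) but not with DESeq2 (0.128).

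Atf3 (chromosome 1, 191170296 to 191218039, minus strand) encodes a stress-induced factor of the ATF family that pairs with JUN proteins and often represses transcription. It measured 4.54, 11.7 and 15.6 CPM in WT vehicle hearts and 17.2, 128 and 15.6 CPM in WT DOX hearts. In KO vehicle hearts it measured 5.25, 4.15 and 3.37 CPM and in KO DOX hearts 3.35, 3.62 and 4.16 CPM. All 6 libraries labelled KO were low, with no more than 5.25 CPM, and only WT vehicle mouse 1 of the 6 WT libraries reached into their range. The WT groups did not overlap, but WT vehicle mouse 3 and WT DOX mouse 24 were the same to 3 digits. DOX raised Atf3 5.02-fold in WT (log2 2.33, SE 0.69, adjusted p = 0.0384).

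Without WT DOX mouse 22 that log2 difference was 0.62 (SE 0.36, adjusted p = 0.279), and the call was lost in 10 of 12 fits that left out 1 library, including 3 of 3 that left out a WT vehicle mouse. It held without WT DOX mouse 21 and without KO DOX mouse 18. KO against WT under DOX gave a log2 difference of -3.85 (SE 0.76, 14.4-fold on the fitted scale), with an adjusted p of 0.0571. Leaving out WT DOX mouse 22 gave -2.14 (SE 0.37, adjusted p = 0.0679). The difference passed without WT DOX mouse 21 (0.0102) or 24 (0.0302), with DESeq2 (0.000222) and with limma-voom (0.0267). Under vehicle the KO difference was -1.32 (SE 0.72, adjusted p = 0.266).

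Jun and Junb encode the JUN-side partners of AP-1, Jun with strong and Junb with weaker transactivation. Jun (chromosome 4, 95049034 to 95052222, minus strand) measured 57.6, 55.9 and 59.7 CPM in WT vehicle, 41.2, 73.8 and 52.3 CPM in WT DOX, 32.6, 54.1 and 41.0 CPM in KO vehicle and 40.8, 51.3 and 42.0 CPM in KO DOX hearts. The WT vehicle hearts were tight, with a coefficient of variation of 3.29%, and all 3 lay above the KO vehicle hearts. Jun gave -0.44 on the log2 scale for KO against WT under vehicle (SE 0.21, adjusted p = 0.2; limma-voom 0.0154) and -0.05 (SE 0.21, adjusted p = 0.88) for DOX in WT.

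Junb (chromosome 8, 84974484 to 84978718, minus strand) measured 16.8, 21.9 and 18.7 CPM in WT vehicle, 13.1, 27.1 and 15.6 CPM in WT DOX, 16.4, 16.3 and 10.8 CPM in KO vehicle and 13.6, 12.0 and 10.2 CPM in KO DOX hearts. WT DOX mouse 22 was the highest of all 12 libraries for both genes, and WT DOX mouse 21 the lowest of its group. Junb gave -0.40 (SE 0.25, adjusted p = 0.327) for KO against WT with vehicle and -0.64 (SE 0.25, adjusted p = 0.244) with DOX. Exons of Jun overlap those of the antisense transcript Junos, and exons of Junb those of Prdx2 on the other strand. The strand setting of the counting is not given, so reads from such overlaps cannot be told apart.

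Egr1 (chromosome 18, 34859823 to 34864984, plus strand) measured 28.2, 46.0 and 64.8 CPM in WT vehicle hearts and 24.8, 16.8 and 16.7 CPM in WT DOX hearts. It measured 9.50, 16.6 and 13.4 CPM in KO vehicle hearts and 35.76, 20.97 and 17.15 CPM in KO DOX hearts. WT vehicle hearts lay above WT DOX hearts without overlap and above KO vehicle hearts without overlap, and KO DOX hearts lay above KO vehicle hearts without overlap. DOX lowered Egr1 2.39-fold in WT (log2 -1.26, SE 0.33, adjusted p = 0.0263), and under vehicle it was 3.51-fold lower in KO (log2 -1.81, SE 0.34, adjusted p = 0.0217). DOX in KO gave 0.90 (SE 0.33), with an unadjusted p of 0.0186 and an adjusted p of 0.743, and 0.53 without KO DOX mouse 18 (adjusted p = 0.921). The interaction was 2.15 (SE 0.47, adjusted p = 0.0868), and KO against WT under DOX was 0.34 (SE 0.33, adjusted p = 0.66).

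The Egr1 call for DOX in WT was lost when WT vehicle mouse 2 or 3, or else WT DOX mouse 22 or 24, was left out, with adjusted p between 0.0727 and 0.0978. The call under vehicle was lost when any KO vehicle mouse, or WT vehicle mouse 2 or 3, was left out, with log2 differences from -2.02 to -1.49 and adjusted p from 0.056 to 0.0984 over these fits and the one with the title suffix as a covariate. The interaction passed when WT vehicle mouse 1 (adjusted p = 0.0458) or WT DOX mouse 21 (0.0303) was left out, with DESeq2 (0.000516) and with limma-voom (0.00753). Some library titles carry the suffix 1 after their leading number, and what it marks is not given. Egr1 was lower under DOX on both sides of that split: 28.2 CPM in WT vehicle mouse 1 against 16.8 and 16.7 CPM with the suffix, and 46.0 and 64.8 CPM against 24.8 CPM without it. Under vehicle it was lower in KO on both sides as well: 28.2 CPM in WT against 16.6 and 13.4 CPM in KO with the suffix, and 46.0 and 64.8 CPM against 9.50 CPM without it. All KO DOX libraries carry the suffix.

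Ier2 (chromosome 8, 84661331 to 84662852, minus strand) encodes a small nuclear protein. It measured 9.93, 22 and 21.5 CPM in WT vehicle, 10.4, 10.3 and 7.92 CPM in WT DOX, 9.62, 9.73 and 8.15 CPM in KO vehicle and 8.07, 8.27 and 8.90 CPM in KO DOX hearts. WT vehicle mice 2 and 3 were high, and the other 10 libraries, WT vehicle mouse 1 included, lay between 7.92 and 10.4 CPM. DOX lowered Ier2 1.88-fold in WT (log2 -0.91, SE 0.24, adjusted p = 0.0265), although the groups overlapped. Leaving out WT vehicle mouse 2 or 3 (adjusted p = 0.1 and 0.0877), or else WT DOX mouse 22 or 24 (0.0781 and 0.102), ended the call. With the suffix, WT vehicle mouse 1 at 9.93 CPM lay between WT DOX mice 22 and 24, while without it WT vehicle mice 2 and 3 lay above WT DOX mouse 21. KO against WT under vehicle gave -0.96 (SE 0.24, adjusted p = 0.0508), with no overlap, and passed when WT vehicle mouse 1 (0.00201) or WT DOX mouse 21 (0.0489) was left out, with DESeq2 (0.00407) and with limma-voom (0.000672). When WT vehicle mouse 2 or 3 was left out it was -0.78 or -0.80 (adjusted p = 0.168 and 0.152). The interaction was 0.79 (SE 0.34, adjusted p = 0.29) and passed when WT vehicle mouse 1 was left out (0.0451) and with limma-voom (0.0425).

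Ier3 (chromosome 17, 35821684 to 35822923, plus strand), an early response gene that acts on cell survival, was the steadiest of the 10. Its lowest value was 23.6 CPM in WT DOX mouse 21, its median 33.1 CPM and its highest 44.7 CPM in WT DOX mouse 24. All 4 groups overlapped in every comparison, and the log2 differences ran from -0.10 to 0.06 in the 4 comparisons between groups.

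Myc (chromosome 15, 61985391 to 61990374, plus strand) encodes a growth-promoting factor that binds DNA with MAX. It measured 2.76, 3.28 and 2.54 CPM in WT vehicle, 2.34, 19 and 9.27 CPM in WT DOX, 6.84, 4.19 and 2.86 CPM in KO vehicle and 2.84, 2.01 and 1.73 CPM in KO DOX hearts. WT DOX mice 22 and 24 were high, and WT DOX mouse 21 lay below all 3 WT vehicle hearts. DOX raised Myc 3.55-fold in WT (log2 1.83, SE 0.55, adjusted p = 0.0402). Without WT DOX mouse 22 the difference was 1.03 (SE 0.48, adjusted p = 0.193). The call was also lost without WT DOX mouse 24, any of the WT vehicle mice, KO vehicle mouse veh_3394 or KO DOX mouse 19 or 20, with adjusted p from 0.052 to 0.11. In KO hearts all 3 DOX values lay below all 3 vehicle values, with a log2 difference of -1.08 (SE 0.57, adjusted p = 0.997). The interaction was -2.91 (SE 0.79, adjusted p = 0.152), and KO against WT under DOX was -2.22 (SE 0.57, adjusted p = 0.105). With WT DOX mouse 22 left out these were -2.11 (SE 0.66, adjusted p = 0.327) and -1.41 (SE 0.49, adjusted p = 0.385). Both passed without WT DOX mouse 21 (adjusted p = 0.0107 and 0.00451) and with limma-voom (0.0278 and 0.04). The second also passed with DESeq2 (0.0233).

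**Figure D3:**
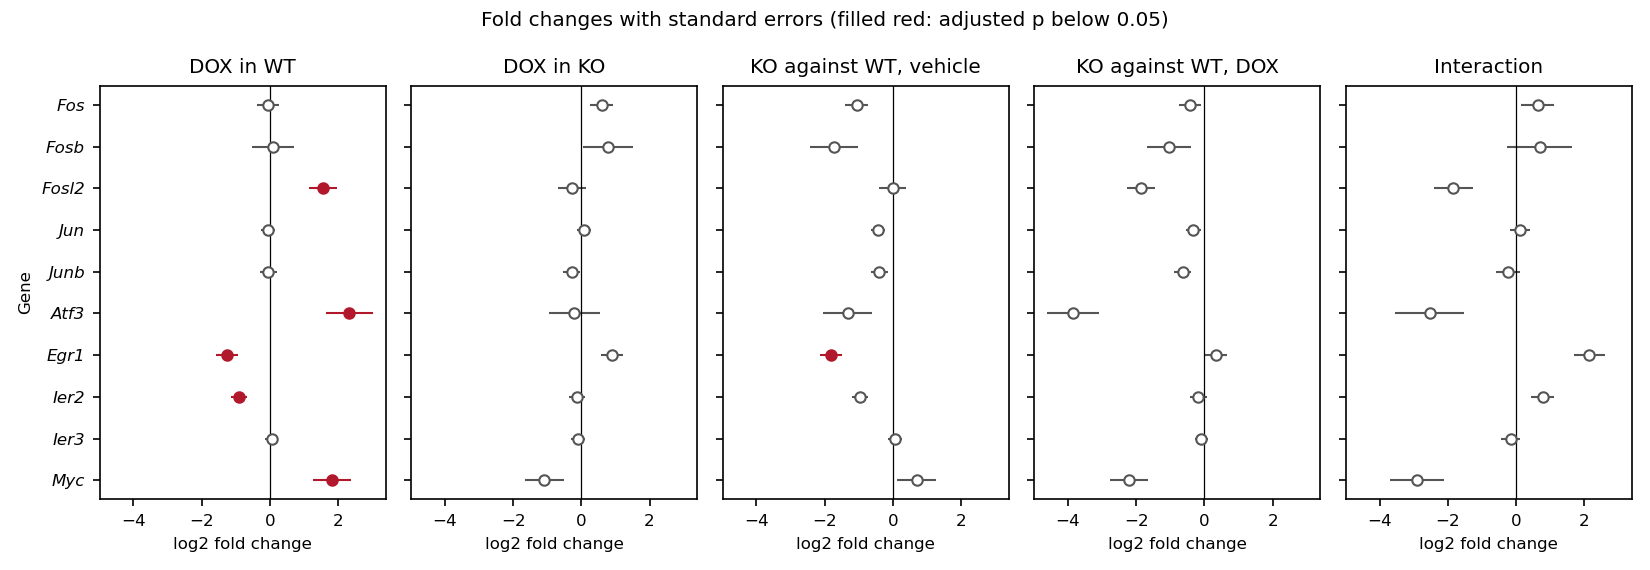
Log2 fold changes of the 10 genes with standard errors in the 4 comparisons between groups and the interaction, filled red where the adjusted p is below 0.05. Fosl2, Atf3, Egr1, Ier2 and Myc are filled for DOX in WT, Egr1 (-1.81) for KO under vehicle, and none in the other 3 panels.

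Groups that do not overlap can be counted without a model. In DOX against vehicle in WT hearts, 3 of 10 members did not overlap (Fosl2 and Atf3 higher, Egr1 lower), against 32.6% of all genes, so the members' share was close to that of all genes. In KO hearts it was also 3 of 10 (Egr1 higher, Fosl2 and Myc lower), against 16.3%. Under vehicle 5 of 10 members lay lower in KO without overlap (Fos, Jun, Junb, Egr1 and Ier2) and none higher, against 14.8% of all genes lower. Under DOX 2 of 10 lay lower in KO (Fosl2 and Atf3), against 9.75% of all genes lower. The median log2 difference of the members was -0.70 for KO under vehicle and -0.53 for KO under DOX, against 0.02 and 0.01 over all genes. For DOX it was 0.01 in WT and -0.11 in KO, against 0.00 and 0.01.

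The 5 calls for DOX in WT depended on single libraries. When WT DOX mouse 22, WT vehicle mouse 2 or WT vehicle mouse 3 was left out, 0 of 10 members were called. Without WT DOX mouse 24 only Fosl2 was. The count was 3 when the mouse left out was WT vehicle mouse 1, KO vehicle mouse veh_3394, KO DOX mouse 19 or KO DOX mouse 20, and 4 or 5 without each of the others. Over all genes, the count of calls in this comparison ranged from 183 to 4188 when 1 library was left out, against 2743 with all 12. A fit of the 2 WT groups alone called 0 of 10, with adjusted p from 0.0817 to 0.119 for the 5 genes, and a fit with the title suffix as a covariate called 0, with adjusted p from 0.0554 to 0.115. On both sides of the suffix split Fosl2 and Atf3 were higher and Egr1 was lower under DOX, whereas Myc was higher with the suffix and lower without it. The direction of the 5 called members was the same in the 12 fits that left out a library and in these 2. With all 12 libraries the same 5 were called by DESeq2 (adjusted p from 0.00143 to 0.0228) and by limma-voom (0.00147 to 0.032).

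**Figure D4:**
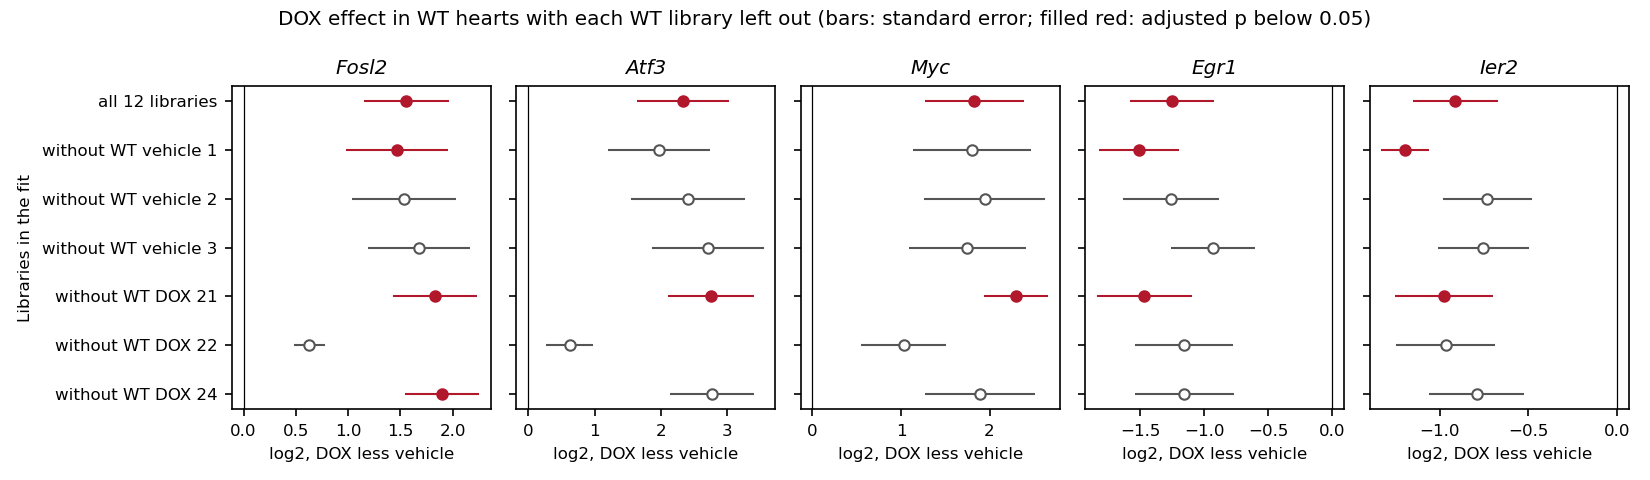
DOX effect in WT hearts (log2, DOX less vehicle, with standard errors) for the 5 called genes with all 12 libraries and without each WT library in turn, filled red where the adjusted p is below 0.05. All points keep their sign, the effects on Fosl2, Atf3 and Myc drop to 0.63, 0.62 and 1.03 without WT DOX mouse 22, and Egr1 stays between -1.51 and -0.94.

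Seen by library rather than by gene, WT DOX mouse 22 held the highest value of 5 members (Fosl2, Jun, Junb, Atf3 and Myc). WT vehicle mouse 2 held the highest value of 3 (Fos, Fosb and Ier2), WT vehicle mouse 3 that of Egr1 and WT DOX mouse 24 that of Ier3. KO vehicle mouse veh_3393 held the lowest value of 4 (Fos, Fosb, Jun and Egr1). The mean standardised log2 CPM of the 10 members was 1.30 in WT DOX mouse 22, 0.89 in WT vehicle mouse 2 and 0.62 in WT vehicle mouse 3. It was below 0 in all 6 libraries labelled KO, and also in WT vehicle mouse 1 (-0.20) and WT DOX mouse 21 (-0.07).

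**Figure D5:**
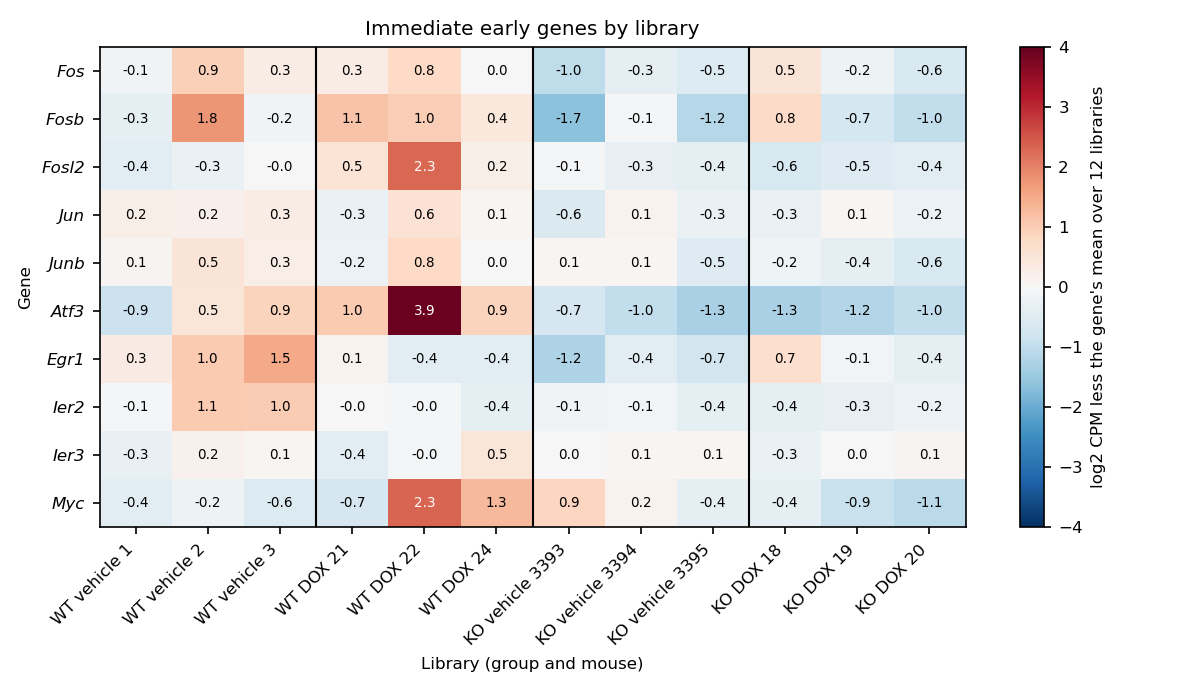
Log2 CPM of each gene less its mean over the 12 libraries (colour and printed value), with libraries in columns by group. WT DOX mouse 22 is high for Atf3 (128 CPM), Fosl2 and Myc but not for Egr1, whose high values lie in WT vehicle mice 2 and 3 (46.0 and 64.8 CPM).

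Other values moved with these libraries. Cardiomyocyte markers summed to 65421 to 77050 CPM in WT vehicle, 51245 to 61708 CPM in WT DOX, 62060 to 69700 CPM in KO vehicle and 60644 to 66521 CPM in KO DOX hearts. For DOX in WT 2 of the 8 were called lower, against 9.2% of all genes called lower. Counted in either direction, 4 of 8 did not overlap, all of them lower, against 32.6% of all genes in either direction. Neutrophil markers summed to 2.23 to 3.45 CPM in WT vehicle, 9.06 to 39.2 CPM in WT DOX (9.06, 39.2 and 31.1 in mice 21, 22 and 24), 7.04 to 11.0 CPM in KO vehicle and 4.21 to 5.63 CPM in KO DOX hearts. All 6 of 6 neutrophil markers were called higher for DOX in WT, against 9.39% of all genes called higher. The 11 glucocorticoid-induced genes summed to 4504 CPM in WT DOX mouse 22 and to 724 to 1407 CPM elsewhere, with Pdk4 alone at 3243 CPM in that heart. In WT vehicle mouse 2 the macrophage markers summed to 493 CPM against 164 to 304 CPM elsewhere and the heat shock genes to 2343 CPM against 1287 to 1697 CPM, while mitochondrially encoded genes took 19.5% of counts against 24.4% to 33.6%. Atrial markers summed to 2270 CPM in KO vehicle mouse veh_3394 and 1706 CPM in KO DOX mouse 18, against at most 262 CPM elsewhere, and without these 2 hearts the count of members called for DOX in WT was 3 (Fosl2, Egr1 and Ier2). Endothelial markers summed to 915 to 1186 CPM in WT vehicle, 794 to 917 CPM in WT DOX, 772 to 851 CPM in KO vehicle and 769 to 954 CPM in KO DOX hearts. Of these markers 4 of 8 were called lower for DOX in WT, against 9.2% of all genes called lower. Erythroid markers summed to 0.144 to 0.395 CPM in the 3 WT DOX hearts and 0.709 CPM in KO DOX mouse 18, against 46.5 to 253 CPM elsewhere. The KO vehicle mice carry far higher numbers than all other mice, and the labels do not say how they were bred or housed. The part of these values in the results on the 10 genes was not tested.

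Among 11 other tested AP-1 proteins and partners, Jund, the JUN relative that is usually expressed at a steady level, was called lower in KO than in WT under vehicle (log2 -0.91, SE 0.21, adjusted p = 0.0412). It measured 43.6, 81.1 and 72.3 CPM in WT vehicle and 29.0, 40.1 and 35.4 CPM in KO vehicle hearts, without overlap, and 34.3 to 35.8 CPM in KO DOX hearts. Mafk, a small MAF protein, rose with DOX in WT (0.70, SE 0.22, adjusted p = 0.0463), with 84.6 CPM in mouse 22. It was the only 1 of the 11 called there, against 18.6% of all genes. Jund was the only 1 called for KO under vehicle, against 2.88% of all genes. None of 4 tested EGR relatives and NAB corepressors was called in any comparison. Of 9 tested MYC partners and paralogs, Mlxip rose (0.64) and Mycn fell (-1.31) with DOX in WT, where 18.6% of all genes were called.

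Upstream of the members, 6 of 13 tested SRF, TCF, MRTF and CREB regulators were called for DOX in WT, against 18.6% of all genes tested. Myocd, a cardiac coactivator of SRF, rose (1.23, adjusted p = 0.00887), as did Atf1, Crtc1 and Mrtfb. The ternary complex factors Elk3 (-0.56) and Elk4 (-0.52), which bind with SRF at early gene promoters, fell. Both were also lower in KO under vehicle (-0.52 and -0.53, adjusted p = 0.019 and 0.035), and Elk3 passed for the interaction (0.83, SE 0.13, adjusted p = 0.0288). Elk3 stood at 46.5, 44.2 and 46.8 CPM in WT vehicle and at 29.0 to 41.0 CPM in the other 9 hearts. Of 19 tested MAP kinases and upstream kinases, 5 fell with DOX in WT, led by Mapk3 (-0.52), Mapk7 (-0.53) and Map2k2 (-0.45), and Map2k4 (0.39) was among those that rose. In all, 7 of the 19 were called, against 18.6% of all genes. The median of that list was 0.00, the same as over all genes.

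Of 18 feedback inhibitors, which shut early gene signalling down again, Dusp6, a MAP kinase phosphatase, fell with DOX in WT (-0.88, SE 0.19, adjusted p = 0.0168), and Tob1 (0.92), Dusp4 (2.18) and Tob2 (0.50) rose. These 4 of 18 calls were close to the share of all genes called, 18.6%. Dusp6 measured 27.6, 27.6 and 33.0 CPM in WT vehicle and 13.7 to 21.9 CPM in the other 9 hearts. Of 37 other tested immediate early genes, 5 rose with DOX in WT: the nuclear receptors Nr4a1 (2.18) and Nr4a3 (1.40), Csrnp1 (1.23), Nfil3 (1.26) and the kinase Sik1 (1.47). Ier5l fell (-0.81). These 6 of 37 calls were close to the share of all genes called, 18.6% (9.39% higher and 9.2% lower). Under DOX, 3 of the 37 were called lower in KO than in WT, against 0.42% of all genes called in either direction. They were Nr4a1 (-2.48, SE 0.37, adjusted p = 0.0186), Nr4a3 (-3.14) and Nfil3 (-1.74). Of the 37, 17 lay lower without overlap, against 9.75% of all genes. Nr4a1 measured 78.5, 176 and 49.5 CPM in WT DOX and 15.3 to 20.1 CPM in KO DOX hearts. WT DOX mouse 22 was the highest of the 12 libraries for each of the 5 that rose, with Sik1 at 200 CPM and Csrnp1 at 53.7 CPM.

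Downstream, 4 of 17 tested targets of AP-1 or EGR1 were called for DOX in WT, close to the share of all genes called, 18.6%. Of these, Tgfb1 (-0.57), Ccnd1 (-0.88) and Pdgfb (-0.58) fell. Hmox1 (2.11) rose, with 75.7 CPM in WT DOX mouse 24 and 24.7 CPM in mouse 22 but 5.25 CPM in mouse 21. Of 15 genes of nucleolar growth that respond to MYC, 3 rose with DOX in WT, Ddx21 (0.63), Mybbp1a (0.33) and Wdr43 (0.33), and none fell. Of all genes, 9.39% were called higher and 9.2% lower. The list's median was 0.21 against 0.00 over all genes. No gene of any of these lists was called for DOX in KO hearts, where 2 genes in all were called, and the interaction called Elk3 alone among them.

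Early genes are also set by time of day and by stress hormones, so both lists were read beside them. Of 14 core clock and output genes, 5 were higher and 2 lower in KO than in WT under vehicle, led by Hlf (1.23, adjusted p = 0.0032) and by Arntl, the clock activator BMAL1 (-3.15, adjusted p = 0.00339). In that comparison 2.88% of all genes were called. For DOX in WT 3 of the 14 rose and 2 fell, among them Dbp (-1.40) and Nr1d1 (-1.12), against 18.6% of all genes called. Of the 11 glucocorticoid-induced genes 6 rose with DOX in WT, led by Hif3a (2.23), Fkbp5 (1.91) and Cdkn1a (1.53), against 9.39% of all genes called higher. Under vehicle Zbtb16 (2.22), Hif3a (1.78) and Fkbp5 (1.75) were higher in KO and Cdkn1a (-1.36) lower. Under DOX 10 of the 11 had negative KO differences, with a median of -0.87 against 0.01 over all genes, and 1 was called lower, Cdkn1a (-2.28). The interaction had a median of -1.20 over the list and called Hif3a lower (-3.11). The times at which hearts were taken are not given, and the part of either list in the results on the members was not tested.

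The genes whose log2 CPM was most like the members' mean standardised level over the 12 libraries, of 11485 screened, were Sat1 (r = 0.973), Ebp (0.953), Cyp4b1 (0.940), Arid5a (0.936), Cd47 (0.929) and Pcid2 (0.920). After removing group means the same 6 had r from 0.846 to 0.947. All of these values rest on the same 12 libraries, in which WT DOX mouse 22 and WT vehicle mice 2 and 3 were high.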

How the data were processed

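For each of the 12 heart libraries the authors deposited a table of raw read counts by gene symbol. Per the labels' protocols, polyadenylated RNA was prepared with a kit that marks strand before sequencing. Tools named in the submitters' processing notes are Subread 1.6.4, featureCounts, STAR 2.7.0f and fastp 0.20.0. Build, annotation, strand setting and the handling of reads with several matches: not given in the sources used here. Positions and exon lengths were taken by symbol from GENCODE M21 (GRCm38), and promoter windows from RefSeq.

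The counts were fitted unchanged with edgeR 4.0.16 in R 4.3.3: filterByExpr by group, TMM scaling, 1 mean per group over all 12 libraries, and quasi-likelihood F tests, with p adjusted by Benjamini-Hochberg over 14757 genes at 0.05. CPM used TMM-scaled library sizes, and log2 CPM a prior count of 2. The biological coefficient of variation was 17.5%. Correlations used permutation tests with 100000 resamples, two-sided. Alternatives were DESeq2 size factors, no TMM, no filter, DESeq2 1.42.0, limma-voom (limma 3.58.1) with quality weights, the 2 compared groups alone, the title suffix as a covariate, and leaving out libraries.

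The members, lists and tests were chosen with earlier results of these data known. Named were all 10 members in every comparison, Pde10a, up to 4 called genes per list and comparison, and the 6 genes most like the members' mean among those averaging 1 or more in log2 CPM. Outside this rule, Pdk4, Nr4a3, Sik1, Crtc1, Mrtfb and Map2k4 under DOX in WT, and the libraries quoted for list genes, were chosen after their values were seen. The value of 1 further list gene is not reported here.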

Additional observations from a re-analysis of the deposited data

Results flagged for a closer look

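For Fosl2 and Egr1 the DOX and vehicle groups did not overlap in either genotype, and the DOX hearts lay on opposite sides in WT and KO. Of all genes, 32.6% did not overlap in WT and 16.3% in KO. The share of genes doing so in opposite directions was not counted. Neither gene passed for DOX in KO (adjusted p = 0.997 for Fosl2 and 0.743 for Egr1, edgeR quasi-likelihood test). All 3 WT DOX hearts lay above all 3 WT vehicle hearts for Fosl2, while all 3 KO DOX hearts lay below all 3 KO vehicle hearts, and the difference between the 2 effects was -1.84 on the log2 scale (adjusted p = 0.197, edgeR quasi-likelihood test), or -0.91 without WT DOX mouse 22 (adjusted p = 0.174). For Egr1 the directions were the other way round, with a difference of 2.15 (adjusted p = 0.0868), or 2.06 without WT DOX mouse 22 (adjusted p = 0.225). In the main edgeR fit of all 12 libraries neither interaction passed the threshold. That of Egr1 passed when WT vehicle mouse 1 (0.0458) or WT DOX mouse 21 (0.0303) was left out. It also passed with all 12 libraries under DESeq2 (0.000516) and limma-voom (0.00753). That of Fosl2 passed with limma-voom (0.0396) but not with DESeq2 (0.128). Both passed in the edgeR fit with no filter, where the differences hardly moved but the standard errors shrank. They were 0.19 for Fosl2 and 0.20 for Egr1, against 0.58 and 0.47 with the filter, and the cause was not tested. No conclusion is drawn from that fit.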

How the results depend on the processing

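The 10 genes in 5 comparisons gave 898 values on the same side of the threshold as with all libraries and settings, 45 that newly passed it, 47 that no longer did and 0 called values of opposite sign. Of the 898, 41 were uncalled values that changed sign. For DOX in WT, 5 members were called, against 0 in a fit of the 2 groups alone, 0 with the title suffix as a covariate, 3 without the 2 libraries high in atrial transcripts, and 0 to 5 without each replicate in turn. The same 5 were called with DESeq2 size factors, no TMM, no filter, DESeq2 and limma-voom. For DOX in KO, 0 were called, against 2 with no filter and 0 to 0 without each replicate. For KO under vehicle, 1 was called, against 7 with no filter, 3 with DESeq2, 4 with limma-voom, 0 with the suffix, and 0 to 3 without each replicate. For KO under DOX, 0 were called, against 4 with no filter, 3 with DESeq2, 3 with limma-voom, and 0 to 3 without each replicate. For the interaction, 0 were called, against 5 with no filter, 1 with DESeq2, 4 with limma-voom, and 0 to 2 without each replicate. With no filter the log2 differences hardly moved, but their standard errors shrank. For Atf3 in KO against WT under DOX the SE was 0.17 with no filter, against 0.76 with it. The cause of these changes was not tested.

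Over all genes the counts called were 2743, 2, 425, 62 and 31 in the same order. They ranged over 183 to 4188, 0 to 4, 42 to 2670, 8 to 727 and 0 to 515 without each replicate, and over 20 to 5575, 0 to 309, 68 to 5186, 5 to 1152 and 2 to 2048 under the other settings. Without TMM the calls for DOX in WT split into 1845 higher and 941 lower, against 1386 and 1357. No paired analysis was possible because the mouse numbers differ between the groups. Fosb had the lowest depth, with 5 to 79 counts per library, and the part of depth in its spread was not tested.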
